A study of Mus musculus with 4 samples.

Results

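The eosinophil granule proteins and Ear ribonucleases are described here as 7 genes, given by symbol and found by exact match among the 54532 genes of the count table. They comprised 3 granule protein genes (Prg2, Prg3 and Epx) and 4 genes for eosinophil-associated ribonucleases (Ear1, Ear2, Ear6 and Ear10). Each symbol belonged to a single row. Ear10 had too few counts to be tested, so 6 of the 7 were among the 14256 genes tested. Bulk RNA-seq had been carried out by the authors on alveolar macrophages (AMs), which live in the airspace and clear surfactant and particles, purified from lungs of female wild-type (WT) mice, which the study kept on a BALB/c background. The control group held 2 libraries from mice that received no tumor. The tumor group held 2 libraries from mice that had carried 4T1 cells, a mouse mammary carcinoma line grown in the mammary fat pad, for 2 weeks, a time chosen to catch the lung before metastases appear. The study describes the AMs it stained at this stage as CD45+ CD11b- CD11c+ SiglecF+ cells and names the RNA-seq in the same account, while its RNA-seq methods say only that AMs were purified. Whether a library came from a single mouse or from a pool is not given in the sources used here. If the replicates were not separate mice, the p-values measure only the spread between these libraries. As chi-square per gene, the spread between the 2 libraries of a group was 1.81 times counting error in control and 2.3 times in tumor. Whether separate mice would spread more was not tested.

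In the eosinophil, a granulocyte of type 2 immunity, large specific granules store the proteins that these genes encode. The major basic proteins (MBP1 from Prg2, MBP2 from Prg3) are highly cationic and toxic to helminths and host cells, eosinophil peroxidase (from Epx) is a haem enzyme that makes hypohalous acids, and the ribonucleases degrade RNA. Granule proteins are made mainly while eosinophils mature in the bone marrow, and mature eosinophils carry the stored protein with comparatively little of the transcript. The Ear genes are rodent relatives of the human genes for eosinophil-derived neurotoxin and eosinophil cationic protein and have multiplied by recent duplication. Transcripts of Ear1 and Ear2 are also a known feature of mouse AMs, and AMs share the lectin SiglecF with mouse eosinophils.

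Libraries held between 16167147 and 19205737 counts. Levels are given as CPM, counts scaled to a common library total, after scaling of the library sizes by the trimmed mean of M values (TMM). A value of 3 counts or fewer in a library, which is between 0.153 and 0.19 CPM, was treated as the floor. Where both control libraries lay at the floor, the fold change is a lower bound, the lower tumor CPM over the higher control floor. A gene was called when the edgeR quasi-likelihood test gave a Benjamini-Hochberg adjusted p under 0.05 over all tested genes. By that rule 53.8% of all tested genes were called, 29.0% higher and 24.8% lower in the tumor libraries, and over all tested genes the log2 fold change had a median of 0.02. Of the 6 tested members, 5 were called, all of them higher in tumor-bearing mice, and Ear2 was not called. Prg2, Prg3, Epx and Ear6 were at the floor in both controls. Such genes, here and in the lists below, passed the filter on low counts only through the tumor libraries. They could therefore only be called higher, and their number says little beside the shares over all tested genes. Together the 7 genes held 0.178% and 0.182% of all control counts and 0.496% and 0.489% of all tumor counts.

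**Figure D1:**
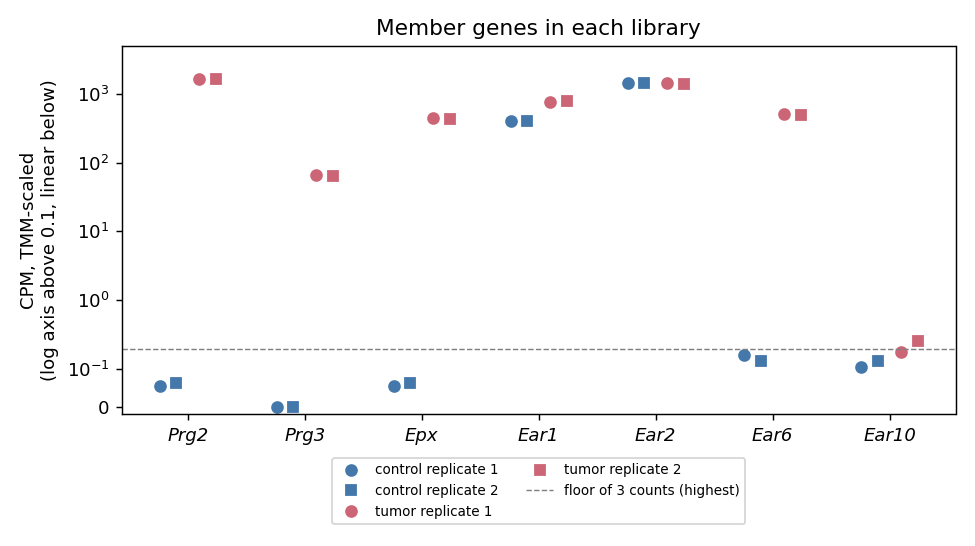
CPM of each of the 7 genes (x axis) in the 4 libraries, on an axis that is logarithmic above 0.1 and linear below, with blue for control and red for tumor, circles for replicate 1, squares for replicate 2 and a dashed line at the highest floor of 3 counts. Prg2, Prg3, Epx and Ear6 lay below the line in control libraries and between 62.9 and 1637 CPM in tumor libraries, Ear1 and Ear2 were high in all 4, and Ear10 stayed near the line.

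The granule protein genes lay at the floor in control AM libraries and were abundant in those of tumor-bearing mice. Prg2 (ENSMUSG00000027073, chr2:84980461-84983632, plus strand, GRCm38), which encodes MBP1, the core protein of the eosinophil granule, had 1 count in each control library, 28344 in tumor replicate 1 and 32089 in tumor replicate 2. Both tumor libraries were high, both control libraries were at the floor, and the groups did not overlap. The tumor level was 1636 ± 0.977 CPM (SD, n = 2), at least 8604-fold higher than in control AMs, with an edgeR adjusted p of 7.54e-40. Prg3 (ENSMUSG00000027072, chr2:84988215-84993886, plus strand), which encodes the homologous MBP2, had 0 counts in either control library, 1140 in tumor replicate 1 and 1234 in tumor replicate 2. Its tumor level of 64.4 ± 2.08 CPM (SD, n = 2) was at least 330.9-fold higher, with an edgeR adjusted p of 6.35e-24. The groups for Prg3 did not overlap. Epx (ENSMUSG00000052234, chr11:87864000-87875536, minus strand), the gene of eosinophil peroxidase, had 1 count in each control library, 7699 in tumor replicate 1 and 8386 in tumor replicate 2. At 436.0 ± 12.2 CPM (SD, n = 2) in tumor libraries it was at least 2248-fold higher, with an edgeR adjusted p of 2.71e-34, and again without overlap between groups.

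Summed over the 3 genes, granule protein counts were 2 in each control library, 37183 in tumor replicate 1 and 41709 in tumor replicate 2, or 0.219% and 0.217% of all counts in the tumor group. The sum stood at 2136 ± 15.2 CPM (SD, n = 2) in tumor AMs, at least 11183-fold higher, with an edgeR adjusted p of 4.28e-41. In material of this kind, a change in the number of cells that carry a transcript and a change in the RNA per cell cannot be told apart. The relative amounts of the 3 transcripts were nearly the same in the 2 tumor libraries. Prg2 counts were 3.68 and 3.83 times those of Epx and 24.9 and 26.0 times those of Prg3.

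**Figure D2:**
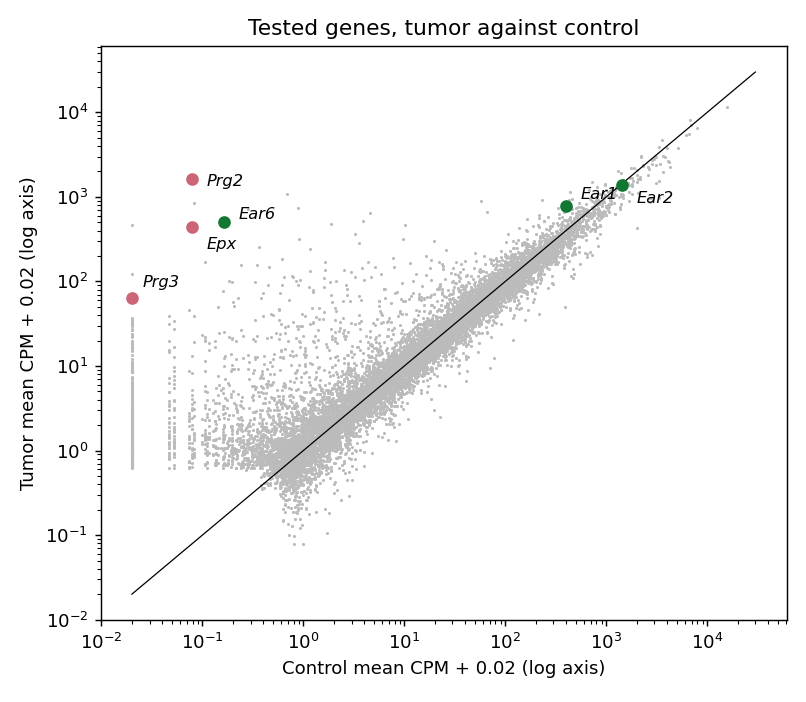
Mean CPM plus 0.02 in control libraries (x axis) against that in tumor libraries (y axis) for the 14256 tested genes, both axes logarithmic, with grey points for all genes, red for the granule protein genes, green for Ear genes and a line of equal level. Prg2, Prg3, Epx and Ear6 lay at the far left with almost no control signal, whereas Ear1 lay above the line and Ear2 on it, among the most abundant genes.

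Prg2 and Prg3 are neighbours on chromosome 2. The gap between them is 4.58 kb, no annotated gene lies in it, and their coding sequences are 64.6% identical, that is at 432 of the 669 coding bases of Prg2. None of the 50-base stretches of the Prg2, Prg3 or Epx transcripts occurred exactly in an annotated transcript of another gene. The nearest tested gene on each side of these loci changed far less, whereas Mpo, farther from Epx than Mks1, rose strongly and is described below. Slc43a3, a purine nucleobase transporter gene 22.0 kb before Prg2, had counts of 114 and 104 in control and 183 and 228 in tumor libraries, a log2 fold change of 0.81 (edgeR adjusted p = 4.07e-05). Ssrp1, a histone chaperone gene 43.3 kb after Prg3, changed by -0.17 (edgeR adjusted p = 0.00166). Mks1, a cilium gene 0.196 kb from Epx, changed by -0.04 and was not called (edgeR adjusted p = 0.88).

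Epx lies in a cluster of haem peroxidase genes on chromosome 11, with Lpo (lactoperoxidase) 35.7 kb and Mpo (myeloperoxidase, of the neutrophil azurophil granule) 59.6 kb away. Mpo had 3 counts in each control library, 1684 in tumor replicate 1 and 1914 in tumor replicate 2, at least 511.6-fold higher (edgeR adjusted p = 7.79e-27). Epx therefore exceeded Mpo by 5.72 and 5.48 times per kilobase of gene length in the 2 tumor libraries. Lpo had 0 counts in every library, and Pxdn, an extracellular matrix peroxidase, had between 3 and 9. Neither Lpo nor Pxdn passed the filter on low counts.

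The 250 bases before the transcription start are shown for Prg3 and Epx, since both genes went from the floor to an abundant level. They come from the RefSeq promoter table of build GRCm38.p6, which held 6 of the 7 members. That of Prg3 is chr2:84987965-84988214 on the plus strand and that of Epx is chr11:87875537-87875786 on the minus strand, both written 5′ to 3′. Capitals mark a match to a GATA factor motif.
Prg3: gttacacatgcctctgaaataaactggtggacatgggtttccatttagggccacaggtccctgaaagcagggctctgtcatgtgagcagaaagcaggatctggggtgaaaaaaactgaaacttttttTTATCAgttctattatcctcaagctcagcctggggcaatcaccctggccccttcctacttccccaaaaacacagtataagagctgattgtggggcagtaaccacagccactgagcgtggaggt
Epx: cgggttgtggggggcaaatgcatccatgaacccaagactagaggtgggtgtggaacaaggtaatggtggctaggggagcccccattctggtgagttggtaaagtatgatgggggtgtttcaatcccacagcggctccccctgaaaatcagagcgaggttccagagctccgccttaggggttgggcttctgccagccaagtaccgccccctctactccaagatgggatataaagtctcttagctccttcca
Both strands were searched for GATA factor motifs (GATA preceded by A or T and followed by A or G), for the C/EBP motif TTGCNNAA, of which TTGCGCAA is a special case, for GAGGAA, a PU.1 motif, and for GCGTG, the core of the AHR response element. GATA factors direct eosinophil commitment, and C/EBP factors and PU.1 act in myeloid cells. The Prg3 window held TGATAA on the opposite strand at position -123 from the start, and GCGTG at position -10. The Epx window held none of the motifs. Of 32851 promoter windows of the same length, 26.5% held at least 1 of the GATA motifs, 7.94% held TGATAA and 28.2% held GCGTG. Such matches describe the letters only.

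The Ear ribonucleases behaved in 3 ways. Ear6 went from the floor to an abundant transcript, Ear1 rose from an already high level, and Ear2, the most abundant of them, did not pass the test. Ear6 (ENSMUSG00000062148, chr14:51853699-51854643, plus strand) had 3 counts in control replicate 1, 2 in control replicate 2, 8839 in tumor replicate 1 and 9565 in tumor replicate 2. Both controls were at the floor and both tumor libraries far above it. Its tumor level of 498.9 ± 16.2 CPM (SD, n = 2) was at least 2565-fold higher, with an edgeR adjusted p of 1.29e-34. Ear1 (ENSMUSG00000072601, chr14:43818765-43875517, minus strand) had 7506 and 6433 counts in control AMs and 13422 and 15541 in AMs of tumor-bearing mice. Its level went from 404.0 ± 5.07 to 783.6 ± 12.0 CPM (SD, n = 2 each), with no overlap of the groups. That was a log2 fold change of 0.96 ± 0.0242 (SE), with an edgeR adjusted p of 6.43e-23. Ear1 thus fell just short of a fold of 2, but stood at 1.02 on the log2 scale with total counts as library sizes and at 1.56 with scaling on the summed AM markers.

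Ear2 (ENSMUSG00000072596, chr14:44102654-44103534, plus strand) had 26732 and 22949 counts in control AMs and 24696 and 27018 in AMs of tumor-bearing mice. The levels, 1426 and 1454 CPM in control and 1426 and 1377 CPM in tumor libraries, overlapped between groups. Ear2 thus changed by -0.04 ± 0.020 on the log2 scale (SE; edgeR adjusted p = 0.102). Leaving out control replicate 1 gave -0.06 (edgeR adjusted p = 0.0139) and leaving out tumor replicate 1 gave -0.07 (edgeR adjusted p = 0.00518). In such fits 1 group has a single library, which is assumed to vary like the other group, so these p-values do not show that 1 library decides the call. Its direction also depended on scaling. It was 0.028 on the log2 scale with plain total counts as library sizes, and 0.57 (edgeR adjusted p = 9.95e-19) with the AM-marker scaling, under which the median of all tested genes was 0.62. Ear10 (ENSMUSG00000090166, chr14:43922720-43923559, minus strand) had 2 counts in each control library, 3 in tumor replicate 1 and 5 in tumor replicate 2, and was not tested.

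Since reads can be exchanged between such similar genes, their counts were also summed. The sum was 34243 and 29386 counts in control and 46960 and 52129 in tumor libraries, that is 1844 ± 24.8 and 2684 ± 38.9 CPM (SD, n = 2 each). The groups did not overlap, and the log2 fold change was 0.54 ± 0.0174 (SE; edgeR adjusted p = 1.93e-20). Adding the related symbols of the table, Ear14, Rnase2a and Rnase2b, left it at 0.54. Ear14 had 0 counts throughout, Rnase2a between 1 and 7 and Rnase2b at most 1.

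**Figure D3:**
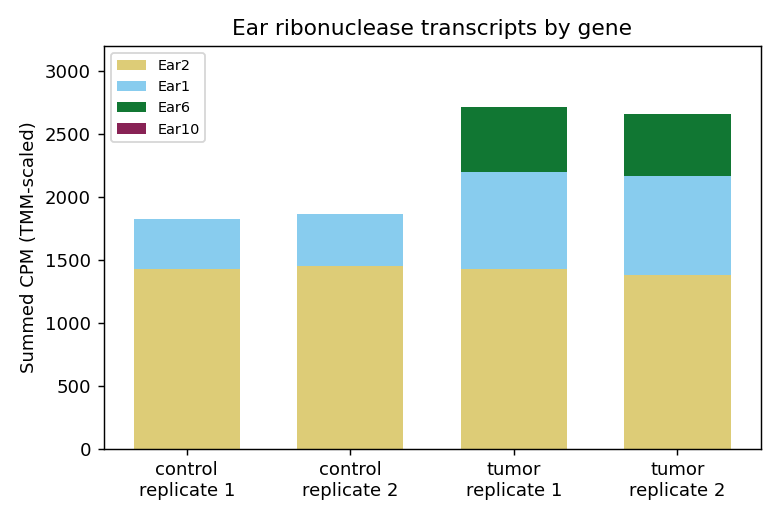
Stacked bars of summed CPM (y axis, from 0) for Ear2, Ear1, Ear6 and Ear10 in each of the 4 libraries (x axis). The Ear2 segment had nearly the same height in every bar, and the taller tumor bars carried a larger Ear1 segment and an Ear6 segment that was not visible in the control bars.

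The make-up of the family differed between the groups. Ear2 held 78.1% of Ear counts in both control libraries (exact binomial 95% intervals 77.6 to 78.5% and 77.6 to 78.6%), and 52.6% (52.1 to 53.0%) and 51.8% (51.4 to 52.3%) in the tumor libraries. The share of Ear1 was 21.9% in both controls (21.5 to 22.4% and 21.4 to 22.4%) and 28.6% (28.2 to 29.0%) and 29.8% (29.4 to 30.2%) in tumor libraries. Ear6 held 0.00876% and 0.00681% in controls but 18.8% (18.5 to 19.2%) and 18.3% (18.0 to 18.7%) in tumor libraries. These intervals cover counting error only. Shares within a family do not depend on how libraries are scaled to each other. The ratio of Ear1 to Ear2 counts was 0.281 and 0.280 in control AMs but 0.543 and 0.575 in tumor AMs, so the unequal change of these 2 genes held within single libraries.

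The sequences show how closely the Ear genes resemble each other. The coding sequence of each Ear gene is a single exon of 465 bases (Ear1, Ear6) or 468 bases (Ear2, Ear10). As a share of the longer coding sequence of each pair, Ear1 and Ear2 were 95.1% identical, Ear2 and Ear10 97.0%, and Ear1 and Ear10 94.4%, whereas Ear6 was between 87.3% and 87.6% identical to the others. In the whole coding sequence 69 of 468 positions differed among the 4 genes. The stretch of 120 coding bases below, positions 181 to 300 counted from the start codon of Ear2, was chosen as the most alike and had 12 such positions, at 7 of which only Ear6 differed. It lies at chr14:43819110-43819229 (Ear1, minus strand), chr14:44103067-44103186 (Ear2, plus strand), chr14:51854178-51854297 (Ear6, plus strand) and chr14:43923069-43923188 (Ear10, minus strand) of GRCm38. Sequences run 5′ to 3′ and capitals mark the positions that differ among the 4 genes.
Ear1: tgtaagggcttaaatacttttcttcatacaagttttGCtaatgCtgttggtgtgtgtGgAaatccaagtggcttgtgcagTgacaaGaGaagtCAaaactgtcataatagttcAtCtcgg
Ear2: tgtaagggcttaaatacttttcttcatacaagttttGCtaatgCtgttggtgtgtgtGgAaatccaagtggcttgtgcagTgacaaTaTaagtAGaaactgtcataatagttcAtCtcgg
Ear6: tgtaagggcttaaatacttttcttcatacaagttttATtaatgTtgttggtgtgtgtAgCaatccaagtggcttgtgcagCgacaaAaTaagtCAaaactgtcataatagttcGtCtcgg
Ear10: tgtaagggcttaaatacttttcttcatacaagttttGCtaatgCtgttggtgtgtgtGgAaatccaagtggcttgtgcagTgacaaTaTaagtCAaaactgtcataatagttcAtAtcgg
Against Ear2, this stretch had 4 different bases in Ear1, 3 in Ear10 and 10 in Ear6. The stretch just before it, positions 61 to 180, was the least alike, with 25 differing positions, at 16 of which only Ear6 differed. It lies at chr14:43819230-43819349 (Ear1), chr14:44102947-44103066 (Ear2), chr14:51854058-51854177 (Ear6) and chr14:43923189-43923308 (Ear10), on the same strands.
Ear1: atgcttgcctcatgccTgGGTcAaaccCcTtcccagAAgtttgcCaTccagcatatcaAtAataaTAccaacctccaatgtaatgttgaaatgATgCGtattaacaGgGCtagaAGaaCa
Ear2: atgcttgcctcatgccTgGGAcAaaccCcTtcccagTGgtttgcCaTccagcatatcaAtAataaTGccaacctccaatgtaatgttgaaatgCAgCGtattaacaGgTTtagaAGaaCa
Ear6: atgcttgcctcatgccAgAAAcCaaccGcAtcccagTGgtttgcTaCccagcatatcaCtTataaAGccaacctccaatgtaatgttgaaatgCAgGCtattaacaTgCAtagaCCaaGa
Ear10: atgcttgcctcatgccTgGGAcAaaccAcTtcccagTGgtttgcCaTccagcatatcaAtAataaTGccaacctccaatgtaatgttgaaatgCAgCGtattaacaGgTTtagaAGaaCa
Here Ear1 had 8, Ear10 had 1 and Ear6 had 19 bases different from Ear2.

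A read can be assigned to a single gene only where its sequence is not shared. Of all 50-base stretches of the transcript, 57.4% in Ear1, 41.5% in Ear2 and 39.9% in Ear10 also occurred exactly in a transcript of another gene, but only 1.07% in Ear6. At 100 bases the shares were 23.9%, 13.9%, 24.2% and 0%, and at 150 bases 5.67%, 6.32%, 6.81% and 0%. Ear1 shared sequence with Ear2, Ear10 and the pseudogenes Ear-ps9 and Ear-ps2. Ear-ps9, whose annotation overlaps 17 of the 730 exon bases of Ear1 on the same strand, had 1 and 3 counts in control and 76 and 92 in tumor libraries. How the counting treated reads with several matches is not stated, and the mice were BALB/c whereas the reference is C57BL/6J, so the split of counts between Ear1, Ear2 and Ear10 is uncertain. The part of shared sequence in the rise of Ear1 was not tested.

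**Figure D4:**
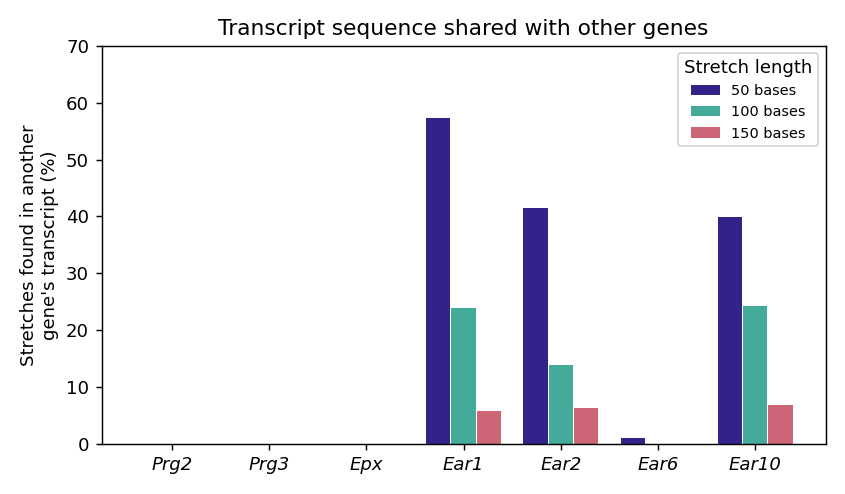
Percent of all 50-, 100- and 150-base stretches of each gene's transcript (x axis) that occur exactly in a transcript of another gene (y axis, from 0). Ear1, Ear2 and Ear10 shared 39.9 to 57.4% of their 50-base stretches, Ear6 shared 1.07%, and Prg2, Prg3 and Epx shared none.

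The 4 Ear genes lie on chromosome 14 in 2 places. Ear1, Ear10 and Ear2 are in the same region, with 47.2 kb between Ear1 and Ear10 and 179.0 kb between Ear10 and Ear2, whereas Ear6 lies 7750 kb from Ear2. Upstream of their starts the genes remain alike. The 250 bases before the RefSeq starts were 98.4% identical between Ear1 and Ear2, 92.8% and 92.4% between Ear10 and these, and between 84.4% and 85.2% between Ear6 and the others. The window of Ear2, the gene with the highest level in control AMs, is printed to show the match to the C/EBP motif TTGCNNAA in capitals (chr14:44102404-44102653, plus strand, GRCm38.p6).
Ear2: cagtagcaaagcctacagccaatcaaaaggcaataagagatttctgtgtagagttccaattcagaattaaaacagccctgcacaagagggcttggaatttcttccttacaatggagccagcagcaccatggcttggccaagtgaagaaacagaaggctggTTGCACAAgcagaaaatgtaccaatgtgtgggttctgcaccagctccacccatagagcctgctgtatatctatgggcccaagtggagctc
Ear1, Ear2 and Ear10 each held TTGCACAA at the aligned place, positions -92, -90 and -94 from their starts. At that place Ear6 held TTACACAA, which does not match the motif. The motif TTGCNNAA occurred in 9.56% of all promoter windows. None of the 4 windows held a GATA, PU.1 or GCGTG match.

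Levels of different genes are compared per kilobase of gene length. In control AMs, Ear2 stood at 2003 ± 27.5 CPM per kb (SD, n = 2) and Ear1 at 553.5 ± 6.94, ranks 10 and 55 among 54532 genes in both libraries. In the tumor libraries Prg2, at 1952 ± 1.17 CPM per kb, and Ear2, at 1949 ± 48.3, did not differ beyond their spread and held ranks 10 to 12. Below them came Ear1 at 1073 ± 16.4, Ear6 at 528.0 ± 17.2, Epx at 159.3 ± 4.45, Prg3 at 67.8 ± 2.19 and Ear10 at 0.316 ± 0.0851 CPM per kb (SD, n = 2 each). Each of these was separated from the next by more than the spread. Prg2, at the floor in control AMs, thus reached the level of the most abundant AM ribonuclease transcript.

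Other ribonucleases of the RNase A family were at much lower counts than Ear1 and Ear2 in every library. Of 13 such genes in the table, 3 could be tested, and all 3 were called higher in tumor libraries, against 29.0% of all tested genes. Rnase4, a neighbour of the angiogenin gene, rose by 0.56 (log2; edgeR adjusted p = 3.35e-05), and Rnase6, an antimicrobial ribonuclease of monocytes and macrophages, rose by 2.93 (edgeR adjusted p = 1.61e-10). Ang (angiogenin) had 7 and 18 counts in control and 27 and 37 in tumor libraries, a log2 fold change of 1.23 (edgeR adjusted p = 0.0196). It was 0.59 without control replicate 1 (edgeR adjusted p = 0.397), 2.17 without control replicate 2 (edgeR adjusted p = 0.00436) and 1.08 without tumor replicate 2 (edgeR adjusted p = 0.0806), and the DESeq2 Wald test did not call it (adjusted p = 0.13). A further 7 of the 13 had 0 counts in every library.

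Genes for receptors that mark eosinophils moved with the granule genes, with exceptions. Of 8 listed receptor genes 7 were tested, 5 were called higher and 1 lower, against 29.0% and 24.8% of all tested genes, and their median log2 fold change was 1.12. Ccr3, the eotaxin receptor, had 2 and 4 counts in control and 996 and 1137 in tumor libraries, a log2 fold change of 8.32 ± 0.19 (SE; edgeR adjusted p = 5.81e-24), which was 7.78 without control replicate 1 and 8.97 without control replicate 2. Il5ra, the IL-5 receptor chain that eosinophil growth depends on, had 5 and 2 counts in control and 337 and 401 in tumor libraries, a log2 fold change of 6.57 ± 0.26 (SE; edgeR adjusted p = 2.1e-18), which was 7.21 without control replicate 1 and 6.17 without control replicate 2. The groups did not overlap for either gene. Il1rl1, the IL-33 receptor, rose by 4.96, Cd24a by 1.12 and Adgre1, the macrophage and eosinophil antigen F4/80, by 0.28. Siglecf, present on AMs as well as eosinophils, was slightly lower, at 399.1 ± 8.51 CPM in control and 356.1 ± 0.00996 CPM in tumor libraries (SD, n = 2 each), a log2 fold change of -0.16 (edgeR adjusted p = 9.16e-06) that became 0.44 under scaling on the AM markers. Ptgdr2, a prostaglandin D2 receptor, was not called (0.58, edgeR adjusted p = 0.292) except under that scaling (1.17, edgeR adjusted p = 0.0183). Its log2 fold change was 1.17 without control replicate 1 and 0.17 without control replicate 2.

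Among 10 transcription factors and other regulators of the eosinophil lineage, 6 were called higher and 3 lower, against 29.0% and 24.8% of all tested genes, and the median log2 fold change was 0.24. Gata1, the factor that commits progenitors to eosinophils as well as to red cells, had 0 counts in control and 219 and 226 in tumor libraries, at least 60.6-fold higher (edgeR adjusted p = 4.67e-16). Gata2 had 3 counts in each control and 395 and 380 in tumor libraries, at least 101.9-fold higher (edgeR adjusted p = 1.55e-18). Cebpe, needed for granule formation in late granulocyte precursors, had 7 and 1 counts in control and 470 and 521 in tumor libraries, a log2 fold change of 6.81 (edgeR adjusted p = 2.7e-19) that was 8.56 without control replicate 1 and 6.12 without control replicate 2. All 3 of these factors were at or near the floor in control libraries. Factors and other regulators already high in control AMs moved less. Cebpa rose by 0.34, Trib1 by 0.90 and Xbp1 by 0.14, while Id2 fell by 0.72, Irf8 by 0.14 and Spi1, which encodes PU.1, by 0.13 on the log2 scale, of which Irf8 and Spi1 turned to 0.47 each under scaling on the AM markers. The call of Irf8 was lost without control replicate 2 (-0.10, edgeR adjusted p = 0.141), with total counts as library sizes (-0.07, edgeR adjusted p = 0.182) and in the DESeq2 Wald test (adjusted p = 0.0589). Zfpm1, a cofactor of GATA1, was not called (-0.19, edgeR adjusted p = 0.245) but stood at 0.41 (edgeR adjusted p = 0.00856) under scaling on the AM markers.

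Ligands that grow or attract eosinophils were scarce in these libraries. Of 11 such genes 4 were tested and 3 were called higher, against 29.0% of all tested genes. Il4, a type 2 cytokine, had 3 and 4 counts in control and 78 and 92 in tumor libraries, a log2 fold change of 4.46 (edgeR adjusted p = 1.04e-10). Il13 had 0 counts in control and 33 and 19 in tumor libraries, at least 5.09-fold higher, and Ccl5 rose by 1.94. Ccl24 (eotaxin-2) had between 8 and 13 counts and was not called (0.11, edgeR adjusted p = 0.886). Il5, the main eosinophil growth factor, had at most 1 count in any library, and Il3, Il25 and Ccl11 (eotaxin-1) had 0, which at these depths allows up to 3 counts a library. Of 4 enzymes of eosinophil lipid mediators, 2 were called, both higher, a share near the 53.8% of all tested genes that were called. Alox15, the lipoxygenase abundant in eosinophils and some resident macrophages, had 4 and 5 counts in control and 12541 and 14084 in tumor libraries, a log2 fold change of 11.40 (edgeR adjusted p = 1.58e-36). Alox5ap rose by 0.71, whereas Alox5 (0.00, edgeR adjusted p = 0.994) and Ltc4s (-0.15, edgeR adjusted p = 0.0703) were not called. Under scaling on the AM markers, where the median of all tested genes was 0.62, they stood at 0.60 (edgeR adjusted p = 7.4e-17) and 0.45 (edgeR adjusted p = 1.21e-06), and with total counts as library sizes Alox5 was called at 0.067 (edgeR adjusted p = 0.043).

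**Figure D5:**
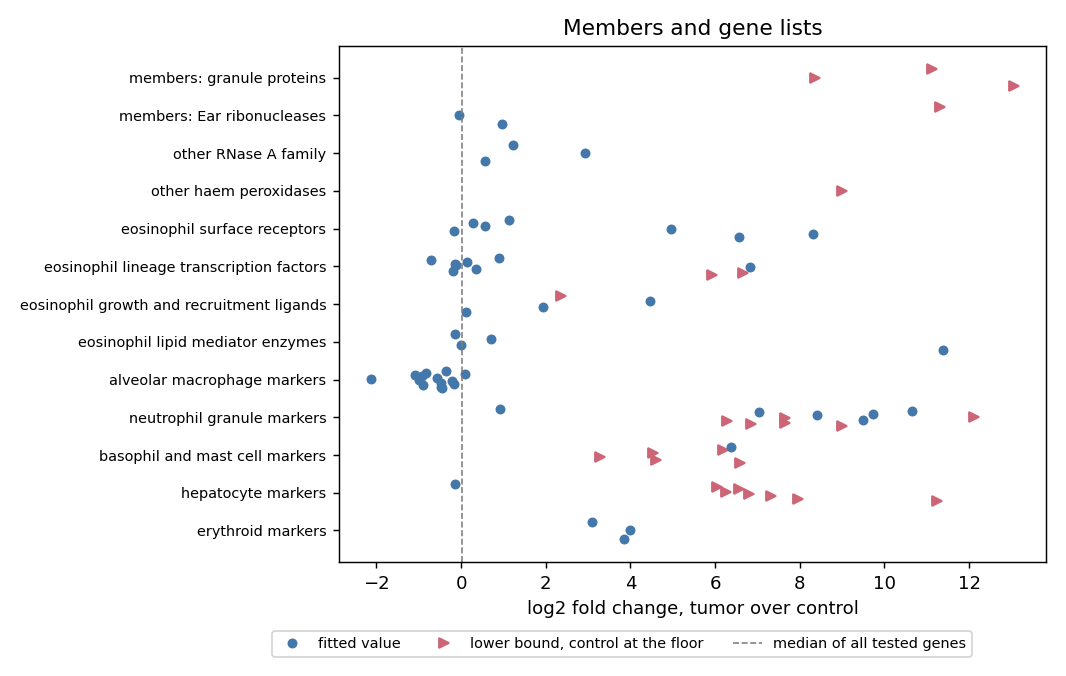
Log2 fold change of tumor over control (x axis) for every tested member and listed gene, grouped by list (y axis), with blue circles for fitted values, red triangles for lower bounds of genes at the floor in both controls and a dashed line at the median of all tested genes. Granule protein genes and Ear6 lie at bounds above 8, Ear1 and Ear2 much closer to the dashed line, AM markers mostly to its left, and neutrophil, basophil and mast cell, and nearly all hepatocyte markers to its right.

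Markers of other cell types moved with these genes, and their counts below stand against 29.0% of all tested genes called higher and 24.8% called lower. AM markers such as Chil3, Mrc1 and Itgax were abundant in all libraries, but 13 of 14 were called lower (all except Ctsk), a direction that scaling on these same markers turns for several of them by construction, and their summed level was 17376 and 17452 CPM in control and 11479 and 11617 CPM in tumor libraries. All 12 listed neutrophil markers, which include S100a8 and S100a9 besides granule genes, were higher, with summed levels of 44.7 CPM in both controls and 3901 and 3878 CPM in tumor libraries. Of 9 basophil and mast cell markers 6 were tested and all 6 were higher, from 0.587 and 0.824 to 100.2 and 90.7 CPM summed, with the basophil proteases Mcpt8 and Prss34 at 0 counts in both controls. Of 8 hepatocyte markers 7 were higher (all except Trf, which macrophages also express), with summed levels of these 7 of 0.107 and 0.253 CPM in control and 620.3 and 623.5 CPM in tumor libraries, and Alb had 0 counts in both controls and 8036 and 9358 in tumor libraries. Of 5 erythroid markers 3 were tested and all 3 were higher, from 0.694 and 1.46 to 14.4 and 15.1 CPM summed over all 5. Of these, the haemoglobin gene Hbb-bt (0 and 5 counts in control, 20 and 28 in tumor libraries) changed by 3.09 on the log2 scale, by 2.00 without control replicate 1 and by a fitted 7.59 without control replicate 2, which leaves only a control at 0, and the DESeq2 Wald test did not call it (adjusted p = 0.141). Listed markers at the floor in both controls were tested only because of their tumor counts, so higher was the only call open to them. They were 6 of the neutrophil markers, 7 of the hepatocyte markers and all tested basophil and mast cell markers except Kit. For them the comparison with 29.0% carries no information. The part of these other cell types in the member results was not tested.

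The genes whose pattern over the 4 libraries was most like that of each sum were sought, with the members left out, among the 9898 tested genes whose higher group averaged 100 counts or more, by Euclidean distance between centred log2 CPM values. For the granule protein sum they were Ngp, a neutrophil granule gene (distance 1.09), Alb, the albumin gene (1.16), Alox15 (2.28), S100a9 (2.75) and Padi4 (3.10). The 2 nearest genes outside the members are thus listed markers of a neutrophil and of a hepatocyte. For the Ear sum they included Atp11b (distance 0.0176), Eif4ebp1 (0.0196), Ets2 (0.0227) and Tmem123 (0.023), each with a log2 fold change between 0.55 and 0.56. A likeness over 4 libraries in 2 groups reflects mostly the difference between the groups.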

How the data were processed

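The authors sequenced AM RNA in 4 libraries, 2 from control and 2 from tumor-bearing mice, which were assigned to groups from the sample titles. TRIzol extraction and a NEBNext Ultra kit are named in the labels. HISAT2 2.0.5 (submitters' processing notes) aligned the paired-end reads, and featureCounts (methods of the study) assigned them to genes. The values used are the counts as deposited, 1 whole number per gene and library, not normalized. The genome build, the strand setting and the handling of reads with more than 1 match are not given in the sources used here. The table carries coordinates, which were identical to GENCODE M21 (GRCm38) for all 7 members and for 98.3% of the genes matched by identifier.

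The main test was edgeR 4.0.16 in R 4.3.3 (filterByExpr with a minimum count of 10, TMM, glmQLFit and glmQLFTest, group as the only term, 2 residual degrees of freedom, Benjamini-Hochberg over 14256 genes, threshold 0.05). The methods of the study state no differential test for AM libraries, while DESeq2 is named without a version among the upstream tools. The Ear sum and the granule protein sum replaced their members in otherwise identical fits. The script was tested on simulated data first. Library depth was 16167147 to 19205737 counts. With 2 libraries a group, no exact permutation test can pass the threshold, and edgeR borrows the spread from all genes. Log2 CPM for pattern likeness used a prior count of 2.

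All 7 members and the genes of the lists could be named, with the 5 genes nearest to each sum, except that some listed or nearest genes are not reported here. The members and lists were chosen with earlier results of these data known. Sequences were read with Python 3.11.15 and Biopython 1.88 from the GENCODE transcripts and the RefSeq promoter table. Identity of coding sequences was used in place of the planned identity of proteins. Transcripts of 141767 entries were searched for shared stretches. Alternatives were other scalings, filters, tools (DESeq2 1.42.0, limma 3.58.1), a replicate block, a minimum fold and leaving out each library.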

Additional observations from a re-analysis of the deposited data

How the results depend on the processing

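The granule protein sum (lower bound of the log2 fold change) lay between 13.44 and 13.68 and the Ear sum between 0.52 and 0.55 when each library was left out in turn, and both stayed called higher under every alternative that gave a value. Requiring at least 10 counts in every library removed Prg2, Prg3, Epx and Ear6 by construction, since they were at the floor in controls, and left 1 of 2 tested members called. Calls over all genes fell from 7671 to 2268 (1839 higher, 429 lower) with a required fold of 2, and called members from 5 to 4, since Ear1 fell short of it (0.96, but 1.02 with total counts as library sizes and 1.56 with AM-marker scaling). Leaving out a library leaves 1 in its group, assumed to vary like the other group, and gave 6515 to 7470 calls over all genes and 5 to 6 called members. Scaling on AM markers gave 11330 calls, of which 10824 were higher and 506 lower, against 4136 and 3535, and moved the median log2 fold change to 0.62 from 0.02. Under it the Ear sum was 1.15.

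Ear2 was 0.028 with total counts as library sizes (adjusted p = 0.257) and 0.57 with AM-marker scaling (adjusted p = 9.95e-19), which lies below that median. It was called lower without a filter (-0.06, adjusted p = 0.0316) and by limma-voom (-0.04, adjusted p = 0.0451), and ranged from -0.07 to -0.02 when libraries were left out. The cause was not tested. Per kilobase, shares of the Ear sum in control and tumor libraries were 21.6% and 30.2% for Ear1, 78.3% and 54.9% for Ear2, and 0.00594% and 14.9% for Ear6, against 21.9% and 29.2%, 78.1% and 52.2%, and 0.00778% and 18.6% by counts.

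Deviations of same-numbered libraries had a correlation of -0.00278. With 2 libraries a group and little spread between them, this cannot show whether the libraries were handled in pairs. With the replicate block, 7446 genes and 5 members were called and the Ear sum was 0.54, so the block changed no call of a member. Ear10 had at most 5 counts in a library, and the cause of its low counts was not tested.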

Other observations

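Gm8113, a predicted gene 1.83 kb from Ear10, had 162 and 111 counts in control and 2525 and 2889 in tumor libraries, a log2 fold change of 4.21 (edgeR adjusted p = 9.6e-27). It was singled out after its values were seen, as the expressed gene nearest to Ear10. Of 10 Ear pseudogenes in the table, 6 had 0 counts in all 4 libraries.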
